A study of Mus musculus with 3 samples.

Results

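The genes described here encode the proteins of the cytosolic ribosome of mouse activated regulatory T cells. They were taken as every protein-coding gene of the GENCODE M21 annotation whose symbol is Rpl or Rps with a number and the usual suffix letters, together with Rplp0, Rplp1, Rplp2 and Rpsa. The rule gave 84 genes of the 55536 gene rows in the first deposited gene table: 46 canonical genes of the large subunit, 31 of the small subunit and 7 paralogs. It used symbols only and no measured value. The paralogs were Rpl3l, Rpl10l, Rpl39l, Rpl22l1, Rpl36al, Rpl7l1 and Rps27l.

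The study holds 3 poly(A)-selected RNA-seq libraries, labelled technical replicates 1, 2 and 3 of 1 biosample, and therefore 1 group. The primary cells came from a male mouse aged 9 weeks of the strain Foxp3GFP-DTRCD4CreERT2R26tdTomato. The strain name joins a Foxp3 allele with green fluorescent protein and the diphtheria toxin receptor, a tamoxifen-inducible Cre recombinase under CD4 and a tdTomato reporter at Rosa26. The labels give the source as the whole organism and do not say how the cells were activated, sorted or pooled. No comparison between conditions is possible, and every test below asks only whether 3 libraries of the same material differed by more than counting noise.

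Each cytosolic ribosome joins a small subunit, which reads the messenger RNA, to a large subunit, which forms the peptide bonds. Nearly every ribosomal protein is present once per ribosome, so the protein output from the messages of these genes is kept in step, largely through translation. Most of the messages begin with a C and a run of pyrimidines, the terminal oligopyrimidine tract through which mTOR signalling and Larp1 control their translation in growing cells such as activated lymphocytes. The genes have also left many processed pseudogenes, copies of the spliced message pasted elsewhere in the genome, and a few paralogs with a restricted pattern, such as Rpl3l in muscle and Rpl10l in testis.

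RefSeq gave a window around the annotated start (build GRCm38.p6) for 64 of the 84 genes. A run of at least 5 bases, each C or T and beginning with C, was searched on the transcript's own strand within 5 bases of the start. It was found for 29 of the 64 genes (45.3%), for 27 of 57 canonical genes and 2 of 7 paralogs, against 21.2% of all 27025 genes with a window. With runs of 4 or more the shares were 48.4% of the members and 34.4% of all genes, and with runs of 7 or more 35.9% and 7.64%. At the annotated start base itself they were 20.3% and 3.01%. The windows below run from 10 bases before the start to 20 bases from it, written 5′ to 3′ with the run in capitals. The first 4 genes are those with the highest level among members with a window, Rpl27a, Rpl15 and Rpl35 have the longest runs and were chosen for them, and the last 2 are the paralogs listed at 0 counts. Of Rps19 and Rpl3l, which have several annotated starts, the most upstream is shown.
Rps19, chr7:24884582-24884611, plus strand: aatctcgcgagactcgacgcccgacttgtg
Rpl41, chr10:128549149-128549178, minus strand: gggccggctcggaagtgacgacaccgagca
Rps27, chr3:90213629-90213658, minus strand: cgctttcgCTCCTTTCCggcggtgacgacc
Rps18, chr17:33955646-33955675, minus strand: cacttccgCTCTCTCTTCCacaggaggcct
Rpl27a, chr7:109519185-109519214, plus strand: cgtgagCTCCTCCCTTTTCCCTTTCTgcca
Rpl15, chr14:18270967-18270996, minus strand: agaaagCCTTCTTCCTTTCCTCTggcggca
Rpl35, chr2:39005112-39005141, minus strand: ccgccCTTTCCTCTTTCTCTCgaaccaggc
Rpl3l, chr17:24727816-24727845, plus strand: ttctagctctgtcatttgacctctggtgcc
Rpl10l, chr12:66284382-66284411, minus strand: cctccattttgcggctggcggtgggcacgc
The runs of Rps27 and Rps18 were 9 and 11 bases long and those of Rpl27a, Rpl15 and Rpl35 20, 17 and 16 bases. Rps19 and Rpl41 had none within 5 bases of the annotated start. Whether the annotated starts are those used in these cells was not tested.

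Library totals lay between 18496690 and 21206219 estimated counts. Markers of the labelled cell type were present in every library, Foxp3, the lineage-defining transcription factor, at 90.8, 96.4 and 82.98 TPM in replicates 1, 2 and 3. TPM is a level per transcript length, scaled to the same total in every library, that can be compared between genes. Erythroid genes were also present, and their summed level was 912, 1275 and 1150 TPM. Of the CD8 T cell genes, Cd8b1 was at 17.7, 21.7 and 22.5 TPM and Cd8a at 0.79, 2.56 and 1.03 TPM. The summed level of 5 B cell genes was 61.2, 61.8 and 69.7 TPM, and that of 5 myeloid genes was 29.6, 21.2 and 32.2 TPM, with S100a8 at 0.

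Ribosomal protein genes were expressed almost without exception and at very high levels. In every library 82 of the 84 reached 1 TPM and 72 of the 77 canonical genes reached 100 TPM. By mean TPM over the libraries, 24 members were among the 100 most abundant genes of the transcriptome. The 84 genes together held 2.58, 3.21 and 2.71% of all counts in replicates 1, 2 and 3. The 95% Wilson intervals were 2.574 to 2.588, 3.201 to 3.216 and 2.704 to 2.719%. These intervals cover counting error only. Their share of TPM was 7.07, 8.60 and 7.39%, larger than their share of counts.

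**Figure D1:**
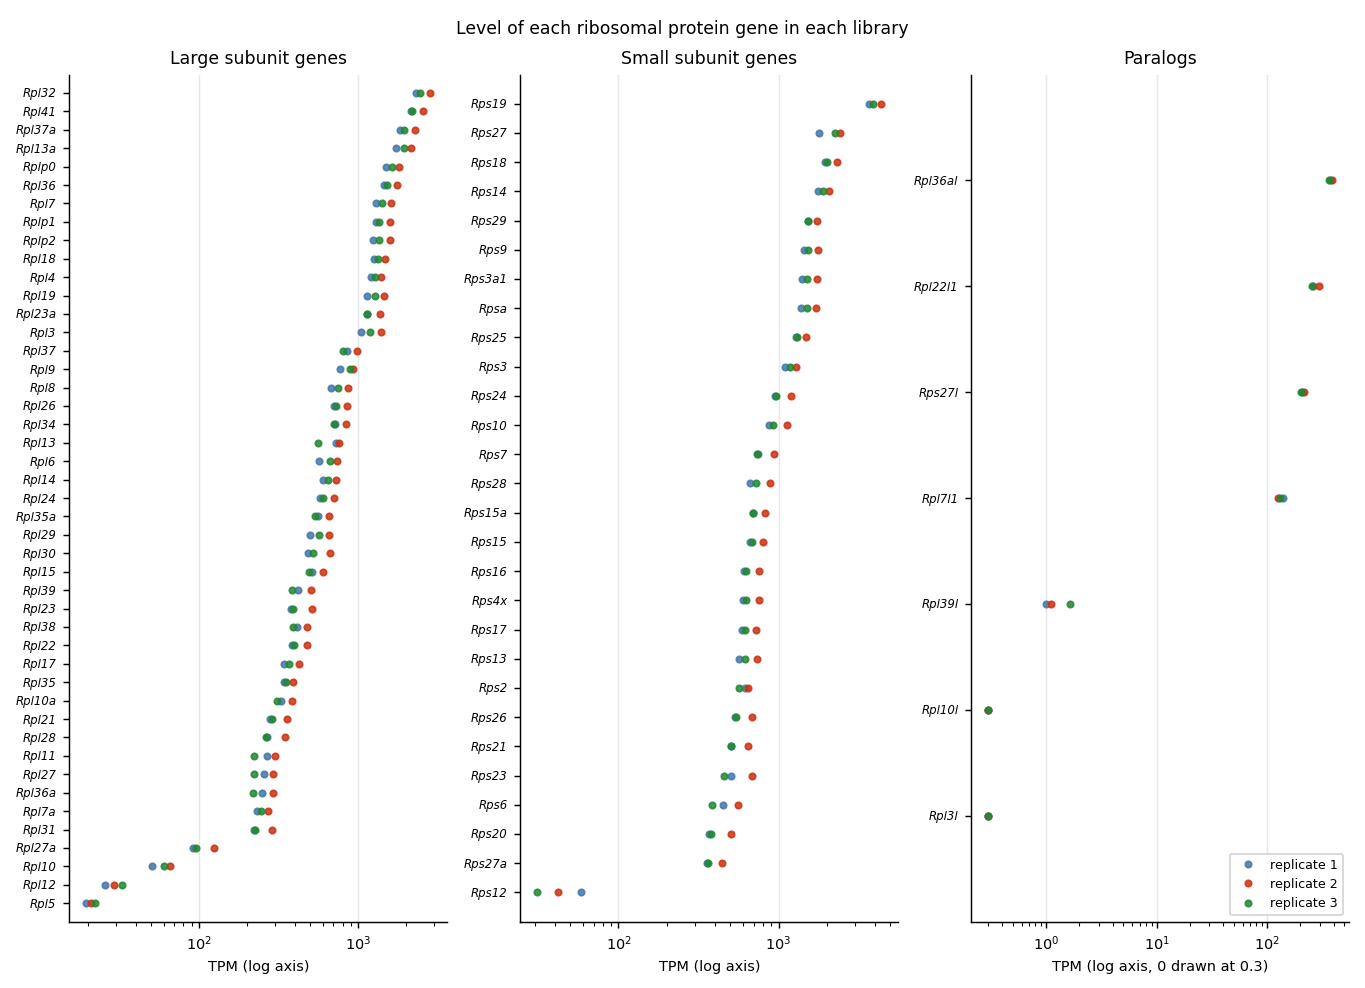
TPM of 80 of the genes in each of the 3 libraries, on a log axis, for large subunit genes, small subunit genes and paralogs, ordered by mean level. Each point is 1 library, and genes listed at 0 are drawn at 0.3. Replicate 2 lies to the right for most genes, and Rpl5, Rpl12, Rpl10, Rpl27a and Rps12 lie far below the rest.

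Of the large subunit, Rpl32 was among the most abundant members, at 2313, 2848 and 2457 TPM in replicates 1, 2 and 3. Rpl41, which encodes the smallest ribosomal protein, was at 2170, 2552 and 2192 TPM and Rpl37a at 1847, 2269 and 1936 TPM. At the other end stood Rpl5, with 19.6, 20.98 and 22.3 TPM. Rpl12, a protein at the base of the stalk, had 25.7, 29.4 and 33.1 TPM, Rpl10, which completes the subunit in the cytoplasm, 50.8, 65.7 and 60.1 TPM, and Rpl27a 92.4, 125 and 95.4 TPM. In these 4 genes, no library reached the lowest library of any other large subunit gene.

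The small subunit was led by Rps19 (chromosome 7, 24884371 to 24889806, mm10), a protein of 40S maturation, at 3654, 4379 and 3885 TPM. Rps27 had 1792, 2415 and 2267 TPM, and Rps18, at the head of the subunit, 1955, 2303 and 2010 TPM. Rps12 was lowest, at 58.1, 42.2 and 31.1 TPM, and was the only canonical gene highest in replicate 1. Among the next lowest were Rps27a, made as a fusion with ubiquitin, with 359, 441 and 362 TPM and Rps20 with 368, 502 and 380 TPM. Rps12 therefore stood about an order of magnitude under its neighbours.

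Genes of known special roles covered the range between these extremes. The P stalk, which recruits elongation factors, was even: Rplp0 had 1508, 1819 and 1640 TPM, Rplp1 1296, 1597 and 1348 TPM, and Rplp2 1252, 1585 and 1348 TPM. The levels of Rplp1 and Rplp2 overlapped in range and were below Rplp0 in every library, although the stalk holds more copies of the former proteins than of Rplp0. Rpl5 and Rpl11 bind 5S ribosomal RNA and, when free, Mdm2, the inhibitor of p53. Rpl11 had 267, 302 and 222 TPM, far above Rpl5, but with the matched pseudogenes described below added the levels were 926 ± 85.2 TPM for Rpl11 and 567 ± 56.9 TPM for Rpl5. Rpl3, at the peptidyl transferase centre, had 1041, 1397 and 1196 TPM. Rps3, at the entry of the messenger RNA channel, had 1092, 1290 and 1174 TPM, Rpsa, which doubles as a laminin receptor, 1377, 1702 and 1501 TPM, Rps24 950.2, 1192 and 970 TPM, and Rps6, the substrate of S6 kinase, 447, 558 and 386 TPM.

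The median level was 625 ± 77.5 TPM (SD over 3 libraries) for the 46 large subunit genes and 762 ± 102 TPM for the 31 small subunit genes. On the log2 scale the small subunit median was higher by 0.26, 0.30 and 0.29 in replicates 1, 2 and 3, a mean of 0.29 ± 0.02. The difference varied little between libraries while both medians moved. It is a description of the medians, since single genes spread far more widely within each subunit: the interquartile range of the canonical genes ran from 427 to 1359 TPM.

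The ribosome-associated genes Fau and Rack1, which fall outside the symbol rule, lay in the same range. Fau, a ubiquitin-like fusion that yields Rps30, was at 706, 845 and 712 TPM in replicates 1, 2 and 3. Rack1, a scaffold on the 40S head, was at 565, 694 and 577 TPM.

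The authors' tables divide reads between these genes and their pseudogenes, and the members differed widely in that division. Annotated pseudogenes were matched to the member whose transcript gave their best alignment, at 90% identity or more over 100 bases or at least 50% of the pseudogene. This gave 1119 pseudogenes for 81 members, of which 852 carried counts. Members held 536378, 680396 and 501469 estimated counts in the 3 libraries and their matched pseudogenes 19.9, 19.8 and 20.4% of the counts of gene and pseudogenes together, a mean of 20.1 ± 0.327%. In 18 members the pseudogenes held more counts than the gene, and in 36 of the 77 canonical genes they held under 5%. Whether a read came from the gene or from an identical copy cannot be told from its sequence.

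The 5 highest shares belonged to Rpl5, Rpl12, Rps12, Rpl27 and Rpl10. For Rpl5 the share was 96.3, 96.8 and 95.6%, nearly all of it in Gm15500, a transcribed processed pseudogene on chromosome 7 (114705217 to 114706235) that is 100% identical to the Rpl5 transcript over 1018 bases. Gm15500 had 496, 606 and 530 TPM where Rpl5 itself, on chromosome 5 (107900502 to 107909005, mm10), had 20.96 ± 1.34 TPM. Rpl12 had a share of 93.7, 94.5 and 93.04%, with Gm10275 on chromosome 10 (29698746 to 29699380) identical over 634 bases and at 935, 1236 and 1018 TPM. Rps12 had 82.5, 89.5 and 89.5%, led by Rps12l1 at 424, 578 and 469 TPM. Rpl27 had 80.5, 79.7 and 82.7% and Rpl10 78.8, 75.2 and 79.5%. The 4 large subunit genes with the lowest level and Rps12 were thus all among the 6 members with the highest shares.

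The share was 76.8 ± 0.922% for Rpl27a, most of it in Gm7536, 72.4 ± 1.32% for Rpl11 and 68.6 ± 4.26% for Rps6. Rps27a had 57.8 ± 0.794%. At the other end, the 3 matched pseudogenes of Rpl41 had no counts. Rps19, one of the most abundant members, had a share of 0.769 ± 0.0953%, and its level hardly changed when pseudogenes were added.

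With the TPM of matched pseudogenes added to each gene, all 77 canonical families reached 100 TPM in every library. Rpl5 then stood at 518, 630 and 553 TPM, Rpl12 at 974, 1287 and 1066 TPM, Rps12 at 495, 637 and 512 TPM and Rpl10 at 287, 314 and 349 TPM. The SD of log2 TPM over the canonical genes went from 1.44 to 0.83. The subunit medians rose to 1014 ± 139 TPM for the large and 1248 ± 171 TPM for the small subunit, and the log2 difference between them was 0.30 ± 0.04. The plot of genes alone and with pseudogenes shows that the genes of lowest level moved most.

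**Figure D2:**
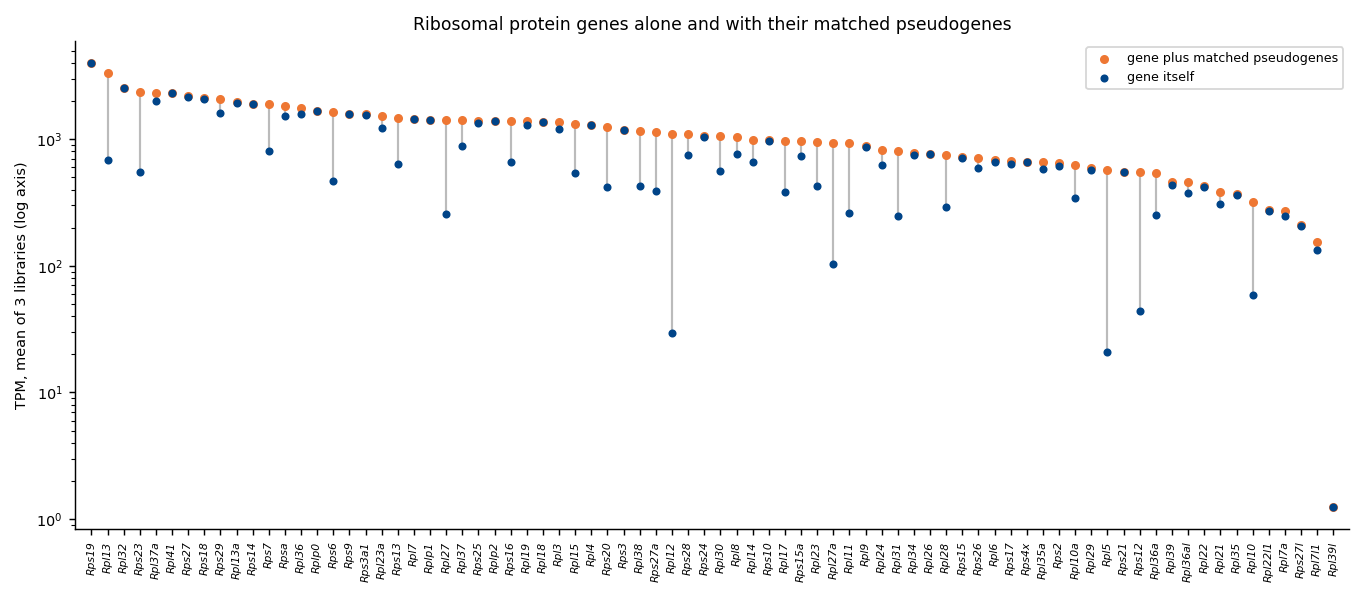
Mean TPM over 3 libraries (log axis) of 78 expressed members alone and with the TPM of its matched pseudogenes added, ordered by the second value. Grey lines join the values of 1 gene. Rpl5, Rpl12 and Rps12 move most in ratio, from about 21, 29 and 44 TPM to 567, 1109 and 548 TPM, while Rps19 hardly moves.

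Some near-identical copies are annotated as protein-coding genes and fell outside both the rule and the pseudogene match. Rps27rt, 100% identical to Rps27 over 341 bases, had 1837 TPM on average against 2158 ± 326 TPM for Rps27. Rpl10-ps3, 100% identical to Rpl10 over 740 bases, had 561 TPM, above Rpl10 at 58.9 ± 7.53 TPM. Gm2000 was 99.6% identical to Rpl35 and had 989 TPM, above Rpl35 at 362 ± 25.9 TPM. The levels of Rps27, Rpl10 and Rpl35 are therefore uncertain in the same way as those of genes with pseudogenes.

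The paralogs ranged from undetected to well expressed. Rpl3l and Rpl10l had 0 counts in all 3 libraries of the first table. A count of 0 allows up to 3 counts per library, which at their lengths is 0.239, 0.229 and 0.268 TPM for Rpl3l and 0.234, 0.224 and 0.263 TPM for Rpl10l. Against that limit Rpl3 was at least 4351-fold higher than Rpl3l and Rpl10 at least 217-fold higher than Rpl10l, taking the library with the smallest ratio. These bounds hold for the first table only: the second deposited table, described below, lists Rpl10l at 0, 0 and 2 counts against 50, 53 and 56 for Rpl10. Rpl39l, best known from testis, had 8, 10 and 12 counts, or 1.00, 1.1 and 1.66 TPM, against 417, 508 and 385 TPM for Rpl39. Its libraries did not differ past the threshold of the test below, and the log2 ratio of Rpl39l to Rpl39, with 0.1 TPM added to both, was −8.36 ± 0.51.

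The other 4 paralogs were expressed at 100 TPM or more. Rpl22l1, which can replace Rpl22, had 260, 298 and 253 TPM against 386, 482 and 394 TPM for Rpl22, a log2 ratio of −0.63 ± 0.06, so that it made up 39.2 ± 1.04% of the pair. Rps27l, a target of p53, had 208, 216 and 201 TPM against 1792, 2415 and 2267 TPM for Rps27, a log2 ratio of −3.36 ± 0.22. Rpl7l1, a pre-ribosome protein, had 139, 126 and 132 TPM against 1290, 1619 and 1406 TPM for Rpl7, a log2 ratio of −3.44 ± 0.24. Rpl36al had 368, 388 and 364 TPM and exceeded Rpl36a, at 249, 293 and 217 TPM, in every library, with a log2 ratio of 0.57 ± 0.17. That order turned when matched pseudogenes were added to both, to −0.24 ± 0.16. Pseudogenes held 41.9 ± 3.18% of the Rpl36a family and 11.2 ± 0.38% of the Rpl36al family. No 50-base window of the main coding transcript of any of the 7 paralogs occurred in its partner's main coding transcript. An exact read of that length from these transcripts therefore cannot fit the main coding transcripts of both partners. It can still fit other copies, since only 36.7% of the windows of Rpl36al and 14.5% of those of Rpl36a occurred in no other gene.

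The coding sequences of the shortest pairs show how far they have diverged. They are printed from the start codon to the last sense codon, from GENCODE M21 transcripts, with the bases that differ between partners in capitals. Rpl39 (X, minus strand) and Rpl39l (chromosome 16, plus strand) differ at 23 of 153 bases, an identity of 84.97%, and their longest identical run is 38 bases. Rps27 (chromosome 3, minus strand) and Rps27l (chromosome 9, plus strand) differ at 60 of 252 bases, an identity of 76.2%, with a longest identical run of 11 bases.
Rpl39: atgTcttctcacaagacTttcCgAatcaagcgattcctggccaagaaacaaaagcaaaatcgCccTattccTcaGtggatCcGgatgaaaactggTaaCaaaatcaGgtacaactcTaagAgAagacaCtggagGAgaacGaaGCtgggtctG
Rpl39l: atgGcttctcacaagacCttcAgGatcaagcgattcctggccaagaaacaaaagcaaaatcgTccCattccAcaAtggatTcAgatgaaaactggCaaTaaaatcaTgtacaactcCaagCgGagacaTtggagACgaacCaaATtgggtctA
Rps27: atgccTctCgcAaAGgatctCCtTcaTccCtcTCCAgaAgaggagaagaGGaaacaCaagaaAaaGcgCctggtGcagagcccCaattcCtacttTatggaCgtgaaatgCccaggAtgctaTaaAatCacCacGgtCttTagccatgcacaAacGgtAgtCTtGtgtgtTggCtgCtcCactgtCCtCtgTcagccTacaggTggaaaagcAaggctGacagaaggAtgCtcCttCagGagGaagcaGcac
Rps27l: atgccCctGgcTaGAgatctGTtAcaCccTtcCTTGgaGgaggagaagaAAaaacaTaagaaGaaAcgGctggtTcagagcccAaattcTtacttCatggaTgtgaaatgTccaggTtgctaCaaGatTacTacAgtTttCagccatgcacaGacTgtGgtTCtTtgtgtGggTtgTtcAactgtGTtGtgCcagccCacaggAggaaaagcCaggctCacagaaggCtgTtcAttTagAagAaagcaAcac

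The members differed between libraries together, and replicate 2 was highest for nearly all of them. Counts were compared with library totals in Pearson's chi-square test with 2 degrees of freedom, with Benjamini-Hochberg adjustment over the 14641 genes with 30 counts or more in sum. Of the 82 members tested, 79 differed, against 44.9% of all genes and 66.6% of the 4456 genes with a mean count of 1000 or more. In CPM, counts scaled to the library total, 77 of 82 were highest in replicate 2, against 33.0% of all genes tested, and 76 both differed and were highest there, against 14.2%. None was lowest in replicate 2, 61 were lowest in replicate 1 and 21 in replicate 3. The median log2 ratio of replicate 2 to the mean of the others was 0.29 for the members and −0.02 for all genes tested. The same ratio for replicates 1 and 3 was −0.20 and −0.11 for the members.

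The size of this difference was nearly the same from gene to gene. The interquartile range of the canonical genes was between 0.25 and 0.33 on the log2 scale, within a full range of −0.08 to 0.52. Rps19 had 863, 1059 and 917 CPM in replicates 1, 2 and 3 and a log2 ratio of 0.25, with an adjusted p of 4.78e-97. Rpl3 had 759, 1024 and 873 CPM and a log2 ratio of 0.33, with an adjusted p of 4.22e-180. The test takes the estimated counts as exact and leaves out the uncertainty of assigning reads between copies. For Rpl3 the posterior SD of the count, explained below, was 2.21, 2.13 and 1.86 times the square root of the count. In both genes the 3 libraries kept the order 1, 3, 2. The median of the large subunit was 0.29 and that of the small subunit 0.30.

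The largest ratio of the highest to the lowest library among members with a mean count of 100 or more was 1.63, for Rps12, followed by 1.51 for Rps23, 1.48 for Rps6, 1.41 for Rpl23 and 1.41 for Rpl30. Rps12 fell outside the common order, with 20.7, 15.99 and 12.7 CPM, yet with its pseudogenes added its log2 ratio for replicate 2 turned from −0.06 to 0.35. For Rpl5 the same ratio turned from −0.08 to 0.28, and in CPM of gene and pseudogenes together 79 of 82 families were highest in replicate 2. The smallest ratios belonged to paralogs: 1.009 for Rpl7l1 (adjusted p = 0.953), 1.09 for Rpl36al (adjusted p = 0.0102) and 1.11 for Rps27l (adjusted p = 0.0835). Rpl7l1 had 158, 158 and 159 CPM. Of the 3 members that did not pass the threshold, the third was Rpl39l (adjusted p = 0.593), with few counts. Without replicate 2, 45 of 81 members differed between replicates 1 and 3, against 27.7% of all genes.

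Other genes of the translation machinery are set beside the members in the plot of replicate 2 ratios. Fau and Rack1 both differed and were highest in replicate 2, with log2 ratios of 0.29 and 0.26. Another list held 15 translation factors and related genes whose messages are known to start with pyrimidines. All 15 differed, against 44.9% of all genes tested and 66.6% of genes averaging at least 1000 counts. Of the 15, 14 were highest in replicate 2, against 33.0% of all genes tested, with a median log2 ratio of 0.17. The pyrimidine search found a run for 3 of the 9 with a window, 33.3% against 21.2% of all genes. Eef1a1, the elongation factor that delivers aminoacyl-tRNA, had 3567, 4417 and 3978 TPM, Tpt1 1091, 1304 and 988 TPM, Eef2, the translocation factor, 609, 711 and 675 TPM, and Eif3f, the lowest, 23.2, 25.6 and 18.1 TPM.

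For genes that build the ribosome the medians lay near that of all genes. Over all genes tested, 44.9% differed and 33.0% were highest in replicate 2, and 66.6% of genes averaging at least 1000 counts differed. Of 16 ribosome biogenesis genes, 9 differed and 4 were highest in replicate 2, with a median log2 ratio of −0.01. Ncl, nucleolin, was at 351, 362 and 354 TPM, Nop56 at 217, 223 and 216 TPM, Nop58 at 165, 175 and 157 TPM and Rrp12, the lowest, at 20.5, 15.7 and 20.2 TPM. Of 11 assembly and export factors, 3 differed and 1 was highest in replicate 2, with a median of −0.01. Their levels ran from Tsr2 at 19.2 ± 1.22 TPM to Sbds at 86.7 ± 3.38, Nmd3 at 130 ± 3.38 and Eif6 at 181 ± 11.1 TPM. Of 78 mitochondrial ribosomal protein genes, 20 differed and 15 were highest in replicate 2, with a median of −0.05. Their levels ran from 2.98 ± 0.59 TPM for Mrps30 to 209 ± 9.73 for Mrpl33, 210 ± 15.0 for Mrpl52 and 248 ± 13.3 TPM for Mrps21.

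Of 10 regulators, 7 differed, against 44.9% of all genes and 66.6% of genes averaging at least 1000 counts, and 6 were highest in replicate 2, with a median of 0.12. The p53 gene Trp53 had 191, 205 and 196 TPM, Mdm2 87.4, 100.7 and 92.9 TPM, Myc, an activator of ribosomal protein genes, 195.5, 176 and 187 TPM and Eif4ebp2, the lowest, 6.18, 7.03 and 6.08 TPM. Trp53 and Mdm2 were highest in replicate 2, while Myc was highest in replicate 1. Differences between these lists were not themselves tested.

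**Figure D3:**
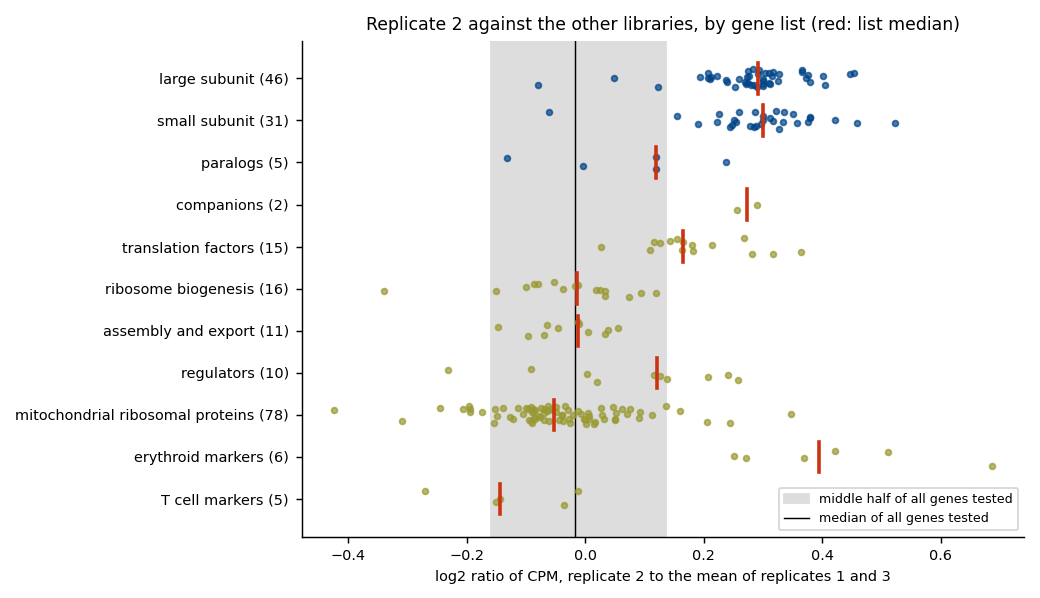
log2 ratio of CPM in replicate 2 to the mean of replicates 1 and 3. Each point is 1 gene, companions are Fau and Rack1, rows are gene lists with the number of genes in brackets, and red bars are list medians. The grey band and the black line give the interquartile range and the median of all genes tested. Large and small subunit genes center near 0.3, translation factors near 0.17, and ribosome biogenesis, assembly and mitochondrial ribosomal protein genes near 0.

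Erythroid genes moved with the members. All 6 erythroid markers differed and were highest in replicate 2, against 14.2% of all genes tested, with a median log2 ratio of 0.40, and none was at 0. For the lists that follow, 44.9% of all genes tested differed and 33.0% were highest in replicate 2. The alpha globin gene Hba-a1 had 210, 294 and 256.5 TPM and Alas2, the first enzyme of erythroid heme synthesis, 4.54, 9.15 and 6.72 TPM. Of the 5 T cell markers 4 differed and none was highest in replicate 2, with a summed level of 7340, 6655 and 7476 TPM. Their log2 ratios for replicate 2 ran from −0.27 to −0.01, with a median of −0.14, against −0.02 for all genes tested. Of 5 regulatory T cell markers 4 differed and 3 were highest in replicate 2, and their summed level was 1959, 1888 and 1754 TPM. The 2 CD8 T cell genes differed in their order. Cd8a, with 23, 72 and 23 counts in replicates 1, 2 and 3, had a log2 ratio of 1.53 (adjusted p = 1.93e-07 by the chi-square test). The more abundant Cd8b1 had a log2 ratio of 0.15 and was highest in replicate 3 (adjusted p = 0.0039 by the same test). Among the 4 myeloid genes tested, 2 differed, Csf1r with −0.71 and Adgre1 with −0.96. Lyz2 had −0.31 and Itgam 0.02, and neither passed the threshold, while S100a8 had no counts. Among 5 B cell markers 3 differed and 1 was highest in replicate 2, with a median log2 ratio of −0.22. In bulk libraries more cells of a type and more RNA per cell cannot be told apart. The part of RNA from these other cell types in the difference of the members was not tested.

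A second deposited gene table gave a different picture of the same genes. It holds whole-number counts for 22457 genes of the older GENCODE M4 annotation and 30.3, 29.3 and 31.1% as many counts in all as the first. All 84 members are in it, but together they held 0.284, 0.296 and 0.304% of its counts, far below their share in the first table. For each gene the ratio of second to first table was divided by the ratio of totals, so that 1 means the same share in both. The median over 82 members was 0.077, 0.068 and 0.080 in replicates 1, 2 and 3. It was 1.58 ± 0.0134 for 13692 other genes and 1.18 ± 0.0176 for the 929 whose mean count lay in the interquartile range of the canonical members.

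Among members the ratio spanned more than 2 orders of magnitude. Rps29 had 3, 7 and 11 counts in the second table against 6862.5, 8214 and 6141 in the first, a ratio of 0.00337. The next lowest were Rpsa with 20, 32 and 23 counts and a ratio of 0.00399, Rpl19 with 22, 15 and 11 counts and 0.00467, and Rpl23a with 13, 17 and 7 counts and 0.00492. The highest were Rpl39l at 1.82, resting on 6, 4 and 6 counts, Rps27l at 0.652, Rpl12 at 0.629 and Rpl7l1 at 0.611. Rps27l had 248, 247 and 222 counts there against 31, 24 and 26 for Rps27, the reverse of their order in the first table. Rpl7l1, with 606, 588 and 567 counts, likewise exceeded Rpl7, with 334, 341 and 335.

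The ratio tended to be higher for members with more sequence of their own, with exceptions. Windows of 50 bases were taken from each member's coding transcript with the most estimated counts. In Rpsa, Rps16 and Rpl35 all coding transcripts together held only 2.71, 2.91 and 4.10% of the gene's counts. A median of 38.8% of a member's windows occurred in no other gene's transcripts. The ratio had a median of 0.0379 for 22 members with under 20% such windows, 0.0599 for 37 members with 20 to 60%, and 0.164 for 22 members with more (Spearman's rho = 0.383, Pearson's r = 0.492 over 81 genes of the same libraries). Rps29 and Rpsa, which had the lowest ratios, had 64.2 and 56.0% such windows, above the median of the members. The first table also gives an uncertainty. The posterior SD of the count, which measures how far reads can be reassigned between transcripts, had a median of 0.771, 0.849 and 0.764 times the square root of the count over 82 members. For 8282 other genes with 200 counts or more it was 0.0044, 0.0047 and 0.0035.

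The second table also held few counts per base of any abundant gene. For other genes with 0.3 to 1 estimated counts per transcript base in the first table, the median was 0.262 counts per base in the second. It was 0.956 at 3 to 10, 0.899 at 10 to 30 and 0.946 above 30 counts per base, and the highest single value from 3 counts per base on was 2.83. Members with 3 or more counts per base in the first table had a median of 0.187 in the second. Neither duplicate removal nor the treatment of reads with several positions is given for that table in the sources used here.

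**Figure D4:**
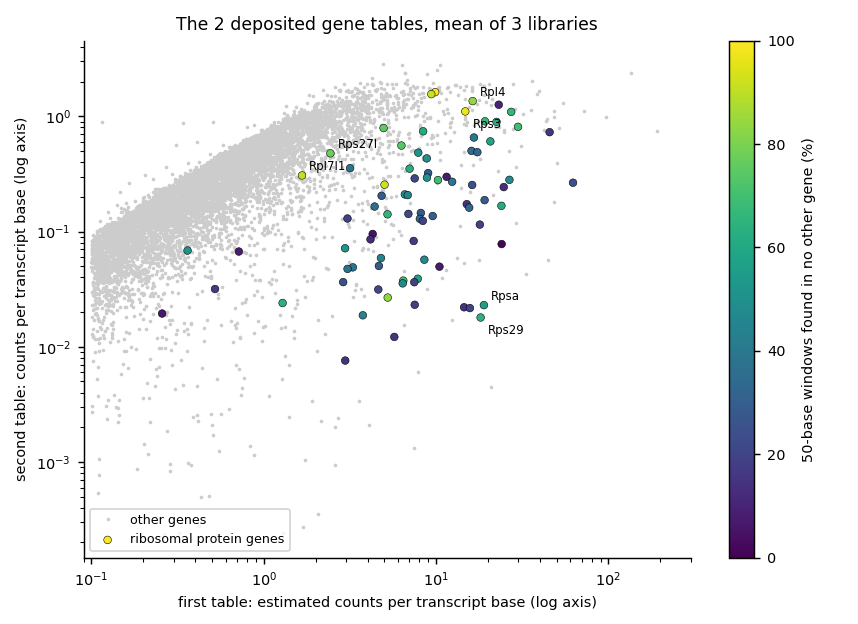
Counts per transcript base in the first table (estimated counts) and in the second table, means of 3 libraries on log axes. Grey points are other genes and coloured points are ribosomal protein genes. Colour gives the percentage of 50-base windows of the main coding transcript that occur in no other gene. Other genes level off near 1 count per base in the second table, and most members lie below them.

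The second table gave no such difference for replicate 2. There 0 of 79 members tested differed between libraries by the same chi-square test, against 23.2% of all genes tested. A likelihood ratio test called 0 as well, and 4 of the 79 had an unadjusted p under 0.05. Of the members, 31 were highest in replicate 2 there, against 32.6%, and the median log2 ratio of replicate 2 was 0.0075. In the second table counts per base level off among abundant genes, where Rps3 stood at 1.103 and Rpl8 at 1.56. Near-equal counts there do not by themselves show that the libraries were alike. Among 571 other genes with 3 or more counts per base and tested in both tables, 81.6% differed in the first and 21.7% in the second. Of the 70 members at that level and tested in both, 70 differed in the first table and 0 in the second. Members at that level had a median of 0.187 counts per base in the second table, against 0.951 for the other genes. A small difference is hard to call in members with very few counts, such as Rps29 with 3, 7 and 11. Not every member was that low: Rpl4 reached 2068, 2075 and 2051 and Rps3 1322, 1346 and 1300. Why 0 members were called was not tested, and 0 calls alone do not show that the libraries were alike.

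The transcript tables divided each gene between its annotated isoforms. The 84 members have 501 annotated transcripts, 235 of them coding, 176 with a retained intron, 25 with a signal for nonsense-mediated decay and 65 processed transcripts without a coding sequence. Coding transcripts held 78.0 ± 0.431% of member counts, nonsense-mediated decay transcripts 9.07 ± 0.0452%, retained introns 7.38 ± 0.204% and processed transcripts 5.57 ± 0.282%. In 34 of 82 members 1 transcript held 90% or more, and in 32 the transcripts outside the coding class held 10% or more. The values are model estimates, since short reads from shared exons fit several isoforms.

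The 6 members with most counts outside their main transcript were Rpl11, Rpl12, Rpl10, Rpl5, Rps12 and Rpl27. In Rpl11 the processed transcript Rpl11-207 and the coding Rpl11-201 held 32.4 ± 10.7% and 34.1 ± 12.9%. In Rpl12 and Rpl5 transcripts outside the coding class held 89.6 ± 1.68% and 77.0 ± 9.71%, in Rpl10 51.7 ± 1.36% and in Rps12 52.5 ± 21.2%, with 28.3, 67.5 and 61.9% in the 3 libraries of Rps12. Rpl27 was divided between coding isoforms, with 42.3 ± 1.17% in Rpl27-203. All 6 had pseudogene shares of 72.4% or more, but other members with high shares were assigned almost wholly to 1 transcript: Rpl13, with a share of 75.8 ± 2.1%, had 97.5 ± 0.435% in Rpl13-201, and Rps6 had 99.5 ± 0.14% in Rps6-201.

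Some abundant members were also assigned largely to transcripts outside the coding class, with a narrow spread between libraries. In Rpsa the nonsense-mediated decay transcript Rpsa-206 held 93.1, 93.7 and 92.9% of the counts. In Rps18 the processed transcript Rps18-209 held 76.7, 78.5 and 75.3%. Rps16, Rps26 and Rpl35, chosen for their values, had 97.1 ± 0.48%, 96.2 ± 1.56% and 95.9 ± 0.11% outside the coding class. By contrast Rps27-201 held 98.2 ± 0.325% of Rps27, Rpl3-201 89.04 ± 0.487% of Rpl3 and Rplp0-201 84.02 ± 0.575% of Rplp0, all of them coding. In Rps24, whose last exons are spliced differently between tissues, the coding Rps24-202 held 51.1, 45.2 and 49.4% and Rps24-201 26.5 ± 1.81%, while 3.54 ± 0.929% fell outside the coding class.

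**Figure D5:**
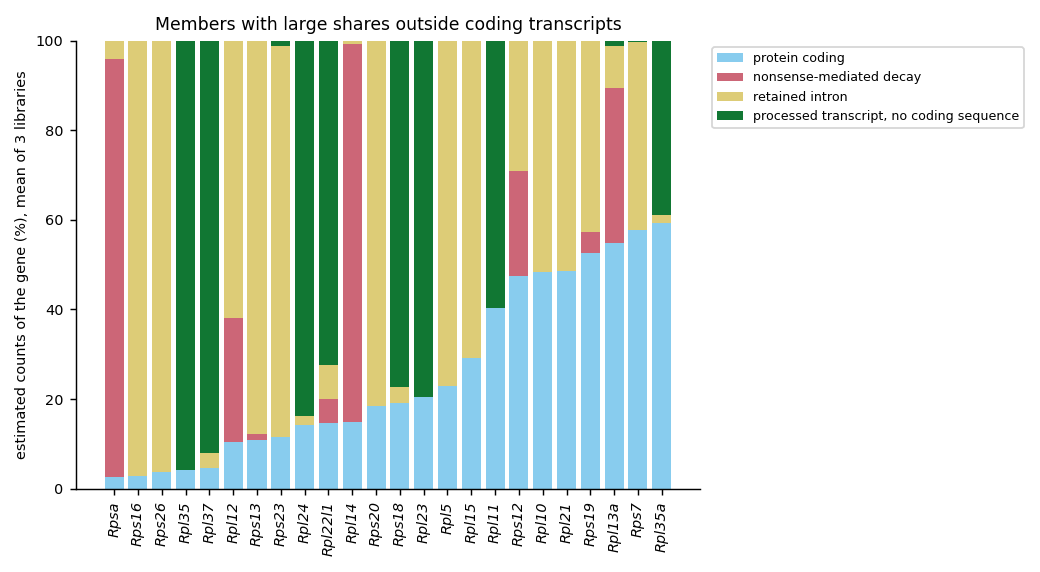
Share of each gene's estimated counts by annotated transcript type, mean of 3 libraries, for 24 members with large shares outside coding transcripts. Each bar is 1 gene and sums to 100%. Rpsa is almost entirely assigned to a nonsense-mediated decay transcript, Rps16 and Rps26 to retained-intron transcripts and Rpl35 to a processed transcript.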

How the data were processed

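The authors' deposited gene tables give estimated counts, TPM and FPKM for GENCODE M21 genes on mm10, per the README listings, with a posterior SD of the count and signal columns of TPM credibility bounds. Transcript tables deposited by the authors add the percent of each gene per isoform. A second table deposited per library holds counts for GENCODE M4 genes. The column names are those RSEM writes, but its version, the aligner, strand and duplicate handling were not given in the sources used here. Rows naming no gene were left out (0.231, 0.271 and 0.190% of counts).

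Members and lists were chosen with earlier results of these data known. Estimated counts were rounded and compared with library totals by Pearson's chi-square test (Python 3.11.15, SciPy 1.17.1) with Benjamini-Hochberg adjustment at 0.05. The test was first checked on data simulated with counting noise only. It leaves out the uncertainty of read assignment, and in 33 members the posterior SD exceeded the square root of the count. Its p-values measure only spread between libraries of 1 sample. TMM factors came from edgeR 4.0.16, size factors from DESeq2 1.42.0 and pseudogene matches from blastn 2.17.0+. Windows of 50 bases were used because length minus effective length was 49. Genes were named by a rule: all paralog pairs, the 4 highest and lowest canonical genes per subunit, the extremes of the library ratio, pseudogene share, table ratio and isoform share, a set fixed for its known roles, and the 3 highest and the lowest of longer lists. The analyses of unique windows and counts per base, the protein-coding copies and the coding-base match were added after seeing the data. Without a protein table, coding DNA is shown in place of protein sequence. Some genes that this rule names are not reported here. Other settings are given in the closing section.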

Additional observations from a re-analysis of the deposited data

How the results depend on the processing

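No paired analysis was possible because there is only 1 group of 3 libraries. Of 167 alternative values, 117 kept their direction and size. Scaling by TMM or DESeq2 size factors moved no count by over 1.5 times, and the 77 members highest in replicate 2 stayed at 77 under both.

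The second table changed most. It gave 0 differing members, 2520 differing genes, 31 members highest in replicate 2, a median log2 ratio of 0.0075 and a share of counts of 0.295%. It called 4 of 15 translation factors, 3 of 16 biogenesis genes, 1 of 11 assembly genes, 0 of 10 regulators (0 also at an unadjusted p under 0.05 and by the likelihood ratio test), 9 of 76 mitochondrial ribosomal protein genes and 2 of 6 erythroid markers, against 23.2% of all genes tested there. With 0.1 CPM added, its log2 paralog ratios were −8.40 for Rpl3l, −5.74 for Rpl10l, −1.53 for Rpl39l, −1.23 for Rpl22l1 and 4.41 for Rpl36al, and they turned to 0.80 for Rpl7l1 and 3.12 for Rps27l. The log2 ratio of replicate 2 turned sign there for Rpl10 (−0.0519), Rpl19 (−0.16), Rpl23 (−0.0482), Rpl27a (−0.17), Rpl36al (−0.0233), Rpl39 (−0.0946), Rpl7 (−0.0206), Rplp0 (−0.0466), Rplp1 (−0.0394), Rps12 (0.72), Rps20 (−0.0394), Rps23 (−0.0328), Rps27 (−0.29) and Rps3 (−0.0097), and 19 further named genes lost the call. The cause was not tested.

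Adding pseudogene TPM moved the subunit medians to 1014 and 1248 TPM, and adding protein-coding copies too to 1078 and 1248 TPM with a log2 difference of 0.21. Means in place of medians gave 908 and 1086 TPM and a difference of 0.26, and keeping paralogs in gave 0.40. With pseudogenes the ratio of Rpl36al to Rpl36a turned to −0.24, that of Rpl10l went to −11.62, and the replicate 2 ratio turned to 0.28 for Rpl5 and 0.35 for Rps12. Their counts raised the share of all counts to 3.54%, and the share of TPM was 7.69%. The pseudogene share was 22.1% at 80% identity, 10.3% by symbol, 24.6% in TPM and 22.3% with protein-coding copies. The non-coding isoform share was 24.2% in TPM, and the table ratio 0.0668 for canonical genes. A pyrimidine run at the start base held for 20.3% of members and 3.01% of all genes, and one within 10 bases for 60.9 and 34.4%.

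The paralogs at 0 counts depend on the pseudocount: Rpl3l had −16.88, −10.23 and −12.91 and Rpl10l −12.52, −5.90 and −8.56 with 0.01 TPM, 1 TPM and 0.1 FPKM added, and Rpl39l −7.60 with 1 TPM. Among members with a pseudogene share under 5%, 37 of 39 differed. Leaving out each replicate in turn gave 45 to 77 differing members and 3783 to 4701 differing genes, the lowest of both without replicate 2 and the second of the latter, 4157, without replicate 1. Rpl39l, with 30 counts in sum, was at the minimum for the test, and 0 counts in Rpl3l and Rpl10l allow up to 0.268 TPM.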
